A study of Mus musculus with 8 samples.

Results

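The genes described here are 40 listed genes of macrophages and complement, given as a list of names with no rule on measured values, though with earlier results of these data known, out of 54429 rows in a table of mouse heart gene expression. They fall into 6 markers of resident-type macrophages, 22 genes used across macrophages and other myeloid cells, and 12 genes of the complement system. All 40 were found in the table.

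RNA was sequenced from both ventricles of C57BL/6 mice at 35 days of age. All mice, including those that served as controls, carried floxed alleles of Esrra and Esrrg, the genes for the estrogen-related receptors alpha and gamma, which are transcription factors of metabolic genes. All had been injected on postnatal day 0 to 1 with an adeno-associated virus (AAV). In the 4 libraries labelled AAV-Cre it was AAV-cTnT-Cre, with Cre recombinase under the cardiac troponin T promoter, and in the 4 labelled AAV-Luc it carried luciferase. That promoter is active in cardiomyocytes, so macrophages, the cells known for most of the genes described here, are not the cells in which it is used to drive Cre. The labels do not say that each library came from its own mouse, so the p-values here rest on library-to-library spread that could be purely technical. Library numbers are names only, given by column order.

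Macrophages live in the heart from before birth and are joined by cells that enter from the blood as monocytes. They take up dying cells and debris, and they depend on signals through the receptor for macrophage colony-stimulating factor. Complement is a cascade of proteins in blood and tissue: C1q binds a surface, its proteases C1r and C1s cut C4 and C2, and these lead to C3, whose fragments mark the surface and, with fragments of C5, attract and activate myeloid cells. Macrophages are the main source of C1q in many tissues, whereas C1r, C1s, C3, C4 and the C1 inhibitor are also made by fibroblasts and other stromal cells.

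The libraries were checked against their labels. Levels are in RPKM, reads scaled to the length of the gene and to the total of the library. The mean of Esrrg was 217.9 ± 17.7 RPKM under AAV-Cre and 112.7 ± 5.51 RPKM under AAV-Luc (SD, n = 4 each). Its log2 fold change was 0.95, with an adjusted p of 5.32e-06 in limma and p = 0.0286 in a two-sided exact permutation test, the smallest p that 4 against 4 allows. Esrrg therefore went against what the label AAV-Cre would give for a floxed gene. A value per gene does not separate reads of the floxed part from the rest of the transcript. Esrra averaged 39.1 ± 4.66 RPKM with AAV-Cre and 45.1 ± 3.66 RPKM with AAV-Luc, and this difference did not pass (log2 fold change -0.21, adjusted p = 0.0705). Relative to the median gene of the library, Esrra was lower (-0.62, adjusted p = 0.000549) and Esrrg still higher (0.54, adjusted p = 0.000317). Every direction given here is between libraries as they are labelled. Heart muscle markers were high in all 8 libraries: the summed RPKM of 8 cardiomyocyte genes ran from 21321.1 to 25160.2 with AAV-Cre and from 25736.7 to 29503.1 with AAV-Luc. The atrial light chain Myl7 was highest in AAV-Cre library 3 (112.9 RPKM) and, among the controls, in AAV-Luc library 2 (26.2 RPKM). Library totals implied by the steps of low RPKM values ran from 47958000 to 60935000 reads.

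Levels of most of the listed genes were higher in the libraries labelled AAV-Cre. Of the 40, 39 had at least 1 RPKM in at least 4 libraries and were tested. Of these 36 were higher at an adjusted p under 0.05 and none was lower (none at an unadjusted p under 0.05 either), beside 64.4% of all 16385 tested genes called higher and 8.87% called lower in the same limma fit on log2(RPKM + 0.5). In those 36 every AAV-Cre library was above every AAV-Luc library, as in 58.4% of all tested genes, while 7.67% of all tested genes were lower without overlap. RPKM is relative to the library total, and the median of all tested genes was itself shifted by 0.41 on the log2 scale, a factor of 1.33. The median log2 fold change of the 39 was 1.03, at percentile 91.8 of all tested genes. With each library centred on its median gene, 30 of the 39 were still higher and 1, Cd163, was lower, beside 21.8% higher and 24.1% lower among all tested genes. In bulk RNA, more cells of a type and more RNA per cell cannot be told apart. The untested gene was Itgax, the integrin CD11c of some macrophages and dendritic cells, which stayed under 1 RPKM in all 8 libraries (0.493 ± 0.0586 RPKM with AAV-Cre and 0.175 ± 0.057 RPKM with AAV-Luc, SD, n = 4 each). Gpnmb passed the filter only through its AAV-Cre libraries, so it had to differ.

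**Figure D1:**
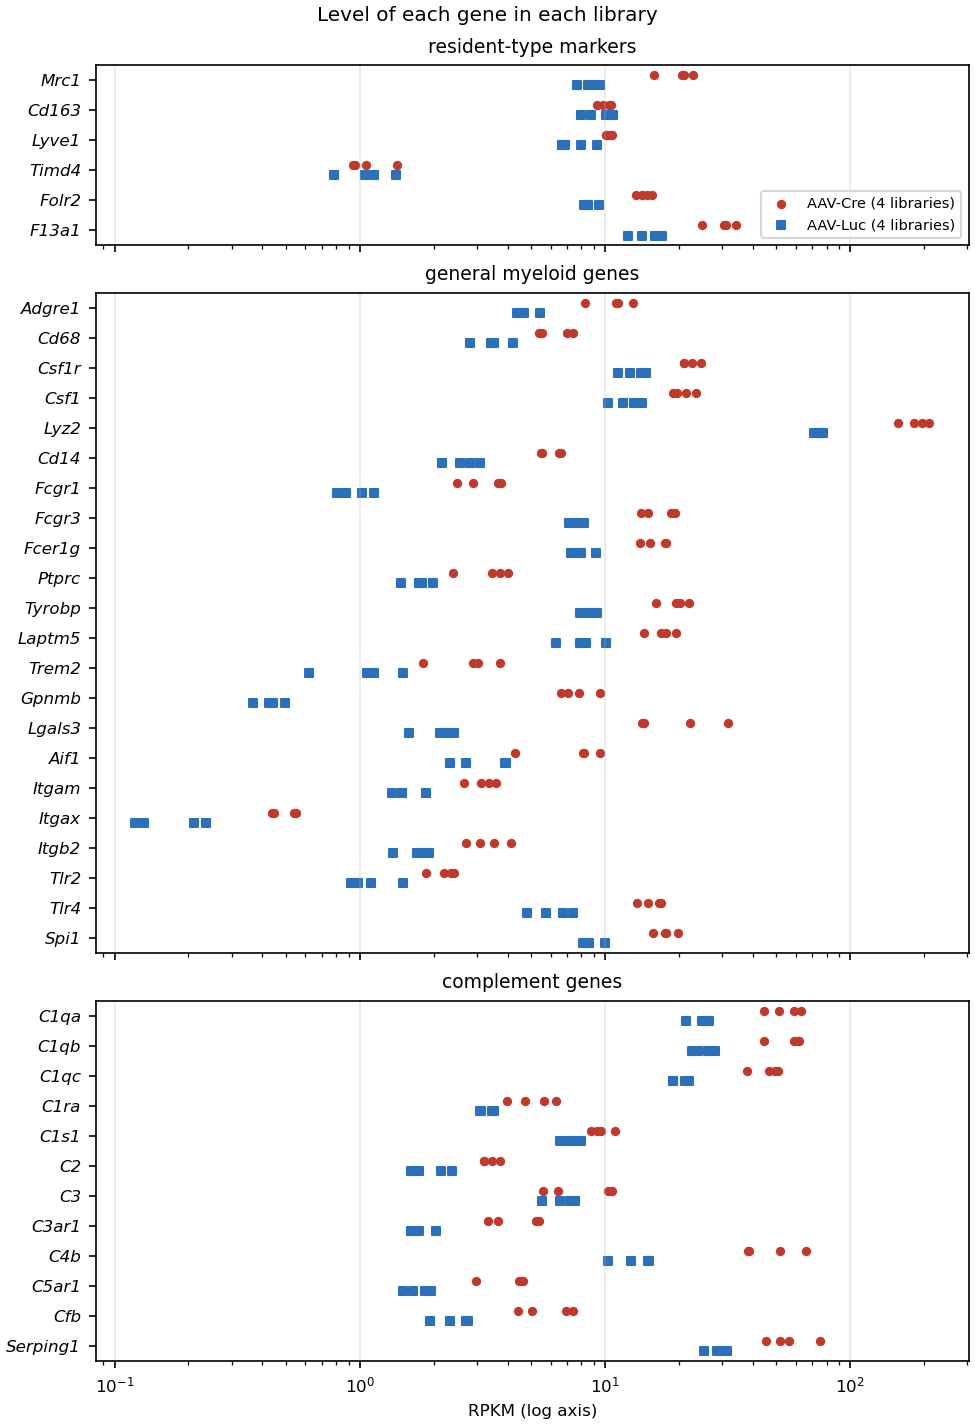
Level of each of the 40 genes in each library, in RPKM on a log axis, with AAV-Cre libraries as circles and AAV-Luc libraries as squares. Circles lie to the right of the squares for 37 genes, and overlap with them for Cd163, Timd4 and C3.

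To set the genes beside a sequence feature, the 250 bases before the transcription start were read from RefSeq (GRCm38.p6) for the 27 genes with an entry, in 32 windows. The core of the site of PU.1, the myeloid transcription factor encoded by the member Spi1, was searched as GAGGAA on either strand. It occurred in 13 of the 32 windows (40.6%), from 12 genes, and in 23.3% of 32851 windows of all genes. The short element bound by the estrogen-related receptors, AAGGTCA on either strand, occurred in 1 of the 32 windows (3.1%), that of Trem2, and in 4.1% of all windows. A match is a description of letters and not a site. The windows of 6 genes to which the results return are printed below, with matches in capitals, each 5′ to 3′ on the strand of its gene. They are chr4:136886201-136886450 (C1qb, minus), chr3:96293970-96294219 (Fcgr1, minus), chr17:48346151-48346400 (Trem2, plus), chr6:49036268-49036517 (Gpnmb, plus), chr6:124304401-124304650 (Cd163, plus) and chr11:46810549-46810798 (Timd4, plus). The PU.1 match lies 30 bases before the start in C1qb (as GAGGAA), 55 in Fcgr1 and 40 in Trem2 (both as TTCCTC), and the AAGGTCA match of Trem2 lies 68 bases before it (as TGACCTT). The windows of Gpnmb, Cd163 and Timd4 hold neither set of letters.
C1qb: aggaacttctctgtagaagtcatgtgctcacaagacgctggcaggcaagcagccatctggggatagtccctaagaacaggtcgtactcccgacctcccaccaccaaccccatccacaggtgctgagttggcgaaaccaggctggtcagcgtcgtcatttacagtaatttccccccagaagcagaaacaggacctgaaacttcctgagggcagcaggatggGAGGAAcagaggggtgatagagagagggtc
Fcgr1: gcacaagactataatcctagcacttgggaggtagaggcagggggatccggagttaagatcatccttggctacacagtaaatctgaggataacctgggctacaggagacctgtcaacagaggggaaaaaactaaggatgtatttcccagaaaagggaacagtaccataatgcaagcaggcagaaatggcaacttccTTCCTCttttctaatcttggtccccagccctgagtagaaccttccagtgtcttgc
Trem2: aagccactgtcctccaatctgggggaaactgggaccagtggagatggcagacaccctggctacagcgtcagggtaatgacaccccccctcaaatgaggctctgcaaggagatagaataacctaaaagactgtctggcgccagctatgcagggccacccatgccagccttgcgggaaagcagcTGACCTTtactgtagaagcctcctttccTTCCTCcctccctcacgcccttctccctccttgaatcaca
Gpnmb: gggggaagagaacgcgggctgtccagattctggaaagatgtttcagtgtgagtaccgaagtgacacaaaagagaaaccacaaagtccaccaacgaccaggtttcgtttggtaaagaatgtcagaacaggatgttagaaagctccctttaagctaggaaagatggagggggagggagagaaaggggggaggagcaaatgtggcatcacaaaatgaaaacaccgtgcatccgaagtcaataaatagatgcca
Cd163: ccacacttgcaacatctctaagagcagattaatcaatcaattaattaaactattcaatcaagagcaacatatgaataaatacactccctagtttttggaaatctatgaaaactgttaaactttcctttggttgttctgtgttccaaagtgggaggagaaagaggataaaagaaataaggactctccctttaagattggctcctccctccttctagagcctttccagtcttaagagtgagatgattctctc
Timd4: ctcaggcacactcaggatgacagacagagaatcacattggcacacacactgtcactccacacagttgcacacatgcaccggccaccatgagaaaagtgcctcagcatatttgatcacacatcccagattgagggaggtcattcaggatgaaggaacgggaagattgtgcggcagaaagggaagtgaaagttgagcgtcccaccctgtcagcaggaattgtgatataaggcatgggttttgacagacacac

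Resident-type markers did not move together. Of the 6 tested, 4 rose in the libraries labelled AAV-Cre, a share near the 64.4% of all tested genes, and Cd163 and Timd4 did not pass. Relative to the median gene 3 were higher and 1 lower, where 21.8% of all tested genes were higher and 24.1% lower. Mrc1, the mannose receptor CD206, had 21.0, 20.6, 15.9 and 22.8 RPKM with AAV-Cre and 8.93, 7.65, 9.51 and 8.48 RPKM with AAV-Luc. All 4 AAV-Cre libraries were above all AAV-Luc libraries, with library 3 the lowest of them. Its log2 fold change was 1.16 (SE 0.11, adjusted p = 2.2e-05). F13a1, the coagulation factor XIII subunit made by tissue macrophages, had 31.2, 30.7, 24.8 and 34.2 RPKM with AAV-Cre, against 14.2, 12.4, 17.1 and 16.01 RPKM with AAV-Luc. Again library 3 was lowest within AAV-Cre and the groups did not overlap (log2 fold change 0.99, SE 0.12, adjusted p = 7.7e-05). The folate receptor Folr2 had 14.1, 15.5, 13.4 and 14.9 RPKM with AAV-Cre and 8.21, 8.53, 8.48 and 9.42 RPKM with AAV-Luc, an even rise within both groups (log2 fold change 0.71, SE 0.07, adjusted p = 2.59e-05).

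Cd163, the scavenger receptor for haemoglobin with haptoglobin, had 10.4, 9.27, 10.6 and 9.82 RPKM with AAV-Cre and 10.8, 7.97, 10.1 and 8.77 RPKM with AAV-Luc. The groups overlapped, and the log2 fold change of 0.09 had an adjusted p of 0.411. Relative to the median gene it was lower, by -0.32 (adjusted p = 0.0358). Timd4, a receptor for phosphatidylserine that marks long-lived resident macrophages, had 0.955, 1.42, 0.936 and 1.06 RPKM with AAV-Cre and 0.782, 1.05, 1.14 and 1.40 RPKM with AAV-Luc. Its groups overlapped, with a log2 fold change of 0.00 (95% interval -0.33 to 0.34, adjusted p = 0.983). On its annotated length of 2173 bases these values correspond to about 104 to 175 reads in each library.

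Lyve1, a hyaluronan receptor of resident macrophages and of lymphatic endothelium, had 10.7, 10.1, 10.1 and 10.45 RPKM with AAV-Cre and 6.70, 6.85, 9.24 and 7.94 RPKM with AAV-Luc. Every AAV-Cre library was above every AAV-Luc library, with a narrow spread under AAV-Cre. Its log2 fold change was 0.41 (SE 0.10, adjusted p = 0.00389), the shift of the median gene, and relative to that gene the difference was 0.00 (adjusted p = 0.979). Of 5 tested lymphatic markers 4 rose, beside 64.4% of all tested genes. On the log2 scale these were Ccl21a by 1.07, Pdpn by 1.16, Mmrn1 by 0.87 and Prox1 by 0.41. Relative to the median gene 3 were higher and 1 lower, beside 21.8% and 24.1% of all tested genes. On that scale Ccl21a was at 0.66, Pdpn at 0.75 and Mmrn1 at 0.46, whereas Prox1, like Lyve1, was at 0.00. The summed RPKM of the 6 listed lymphatic markers ran from 41.8 to 44.4 with AAV-Cre and from 21.7 to 26.4 with AAV-Luc. Their part in the Lyve1 value was not tested.

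Among the general myeloid genes, all 21 that were tested rose, beside 64.4% of all tested genes, with a median log2 fold change of 1.06. Relative to the median gene 19 of them rose, beside 21.8% of all tested genes. Gpnmb, 1 of the 21, passed the filter only through its AAV-Cre libraries. Csf1r, the receptor for macrophage colony-stimulating factor, had 20.9, 22.7, 20.9 and 24.6 RPKM with AAV-Cre and 14.7, 12.6, 11.3 and 14.1 RPKM with AAV-Luc. The groups did not overlap and were of similar width (log2 fold change 0.74, SE 0.09, adjusted p = 9.52e-05). Its ligand Csf1 rose by an equal 0.74 (SE 0.11, adjusted p = 0.00022), averaging 20.9 ± 2.06 RPKM with AAV-Cre and 12.4 ± 1.69 RPKM with AAV-Luc (SD, n = 4 each). Adgre1, which encodes the macrophage surface marker F4/80, averaged 10.9 ± 1.94 RPKM with AAV-Cre and 4.75 ± 0.474 RPKM with AAV-Luc (log2 fold change 1.11, adjusted p = 5.37e-05). Ptprc, the CD45 of all leukocytes, averaged 3.40 ± 0.712 RPKM with AAV-Cre and 1.75 ± 0.214 RPKM with AAV-Luc. Its rise of 0.78 (adjusted p = 0.000922) missed the threshold after centring (0.37, adjusted p = 0.0505), as did that of Tlr2, a receptor for bacterial lipoproteins (0.74 as deposited and 0.33 centred, adjusted p = 0.0673).

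Lysozyme Lyz2 was the most abundant of the 40 genes per length, with 182, 196, 157 and 210 RPKM under AAV-Cre and 71.1, 77.6, 75.4 and 75.3 RPKM under AAV-Luc. AAV-Luc libraries were within a few RPKM of each other, and the lowest AAV-Cre library was well above them (log2 fold change 1.3, SE 0.09, adjusted p = 3.03e-06). The Fc receptors, which bind antibody, rose together with their signalling partners. Fcgr1, the high-affinity receptor, averaged 3.20 ± 0.62 RPKM with AAV-Cre and 0.965 ± 0.15 RPKM with AAV-Luc (log2 fold change 1.33, adjusted p = 2.97e-05). Fcgr3 rose by 1.06, the common gamma chain Fcer1g by 0.95 and the adaptor Tyrobp by 1.12, each at an adjusted p of 3.09e-05 or less. Tlr4, the receptor for lipopolysaccharide, rose by 1.27 (15.5 ± 1.57 RPKM with AAV-Cre, 6.17 ± 1.12 RPKM with AAV-Luc, adjusted p = 2.37e-05), and its co-receptor Cd14 by 1.06 (adjusted p = 3.15e-05). Spi1, which encodes PU.1, rose by 0.97 (adjusted p = 1.64e-05). Other members lay between 0.77 and 1.09: the lysosomal protein Cd68, the lysosomal membrane protein Laptm5, the integrin chains Itgam and Itgb2, and the actin-binding Aif1, whose AAV-Cre libraries had 8.11, 9.51, 4.29 and 8.20 RPKM beside 3.93, 2.70, 3.90 and 2.34 RPKM with AAV-Luc.

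The largest differences among the 40 were of Gpnmb and Lgals3, which with Trem2 are known from macrophages that handle lipid and debris. Gpnmb, a transmembrane glycoprotein of such phagocytes, had 6.61, 7.06, 9.5 and 7.86 RPKM in AAV-Cre libraries and 0.43, 0.50, 0.44 and 0.37 RPKM in AAV-Luc libraries. The groups were far apart and AAV-Cre library 3, low for most other members, was the highest here. The ratio of means was 17.9 (log2 fold change 3.14, SE 0.12, adjusted p = 1.2e-07). Since Gpnmb entered the test through its AAV-Cre libraries alone, these values describe the libraries and its p is not independent of the filter. Lgals3, galectin-3, had 14.1, 14.4, 22.1 and 31.9 RPKM with AAV-Cre and 2.13, 2.25, 1.58 and 2.42 RPKM with AAV-Luc. It was spread widely within AAV-Cre, where libraries 3 and 4 were higher, and did not approach the AAV-Luc range. Its log2 fold change was 2.96 (SE 0.24, adjusted p = 8.18e-06). Trem2, the lipid receptor that signals through Tyrobp, rose by 1.09 (SE 0.22, adjusted p = 0.00137), averaging 2.87 ± 0.801 RPKM with AAV-Cre and 1.08 ± 0.359 RPKM with AAV-Luc (SD, n = 4 each). Of 10 further listed genes of the lipid-associated programme, 8 rose and 1 fell, beside 64.4% higher and 8.87% lower of all tested genes. Relative to the median gene 7 were higher and 2 lower, beside 21.8% and 24.1% of all tested genes. Spp1 of this list passed the filter only through its AAV-Cre libraries, so it had to differ. Cd63, a lysosomal tetraspanin, rose by 1.76 (160 ± 9.5 RPKM with AAV-Cre, 46.7 ± 4.87 RPKM with AAV-Luc) apolipoprotein Apoe by 1.08 and the protease Ctsl by 0.93, whereas lipoprotein lipase Lpl, also made by heart muscle, fell by 0.92.

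The subunits of C1q rose in step. C1qa had 51.3, 62.9, 44.6 and 58.8 RPKM in AAV-Cre libraries and 26.4, 26.3, 21.5 and 24.8 RPKM in AAV-Luc libraries. C1qb had 59.0, 61.9, 44.7 and 61.2 RPKM with AAV-Cre and 28.1, 24.0, 22.7 and 26.2 RPKM with AAV-Luc. C1qc had 46.4, 50.8, 37.9 and 49.2 RPKM with AAV-Cre and 21.2, 18.9, 19.0 and 21.9 RPKM with AAV-Luc. In each of the 3, AAV-Cre library 3 was lowest within AAV-Cre and above all AAV-Luc libraries. Log2 fold changes were 1.11, 1.14 and 1.16 (SE 0.11, 0.11 and 0.10; largest adjusted p 2.65e-05). The ratio of C1qa to C1qb was 0.961 ± 0.065 with AAV-Cre and 0.983 ± 0.076 with AAV-Luc, and of C1qc to C1qb 0.815 ± 0.026 with AAV-Cre and 0.805 ± 0.041 with AAV-Luc. These genes lie within 18675 bases on the minus strand of chromosome 4 (mm10), with C1qb at 136880129 to 136886187, C1qc at 136889804 to 136893065 and C1qa at 136895917 to 136898803.

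The proteases of C1 rose by smaller amounts than C1q, a difference that was not itself tested. C1ra averaged 5.17 ± 1.03 RPKM with AAV-Cre and 3.29 ± 0.22 RPKM with AAV-Luc (log2 fold change 0.56, adjusted p = 0.00289), and C1s1 averaged 9.66 ± 0.928 RPKM with AAV-Cre and 7.33 ± 0.634 RPKM with AAV-Luc (0.37, adjusted p = 0.00375). Relative to the median gene neither passed (0.16 and -0.03). The next step of the cascade was split. C4b, which encodes C4, had 38.4, 38.5, 51.8 and 65.7 RPKM with AAV-Cre and 12.8, 15.1, 10.3 and 15.0 RPKM with AAV-Luc, with every AAV-Cre library far above the highest control. It rose by 1.81 (SE 0.18, adjusted p = 2.66e-05), and C2 by 0.67 (adjusted p = 0.000531), which did not pass relative to the median gene (0.26, adjusted p = 0.0612). C3 itself had 6.44, 5.56, 10.3 and 10.7 RPKM with AAV-Cre and 6.54, 7.22, 5.52 and 7.54 RPKM with AAV-Luc. Libraries 3 and 4 were above the controls and libraries 1 and 2 among them, and C3 missed the threshold (log2 fold change 0.24, SE 0.20, adjusted p = 0.303). The ratio of C3 to C4b was 0.168 ± 0.023 with AAV-Cre and 0.508 ± 0.024 with AAV-Luc.

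Factor B of the alternative pathway, Cfb, rose by 1.12 (5.96 ± 1.45 RPKM with AAV-Cre, 2.43 ± 0.391 RPKM with AAV-Luc, adjusted p = 0.000236). The receptors for the fragments C3a and C5a, C3ar1 and C5ar1, rose by 1.09 and 1.04 (adjusted p = 0.000159 and 0.000122). Serping1, the C1 inhibitor, had 45.3, 51.9, 56.2 and 75.2 RPKM with AAV-Cre and 28.7, 29.5, 25.2 and 31.4 RPKM with AAV-Luc, highest in AAV-Cre library 4 (log2 fold change 0.96, adjusted p = 0.000227). Fibroblast markers were examined beside the complement genes. All 12 rose, beside 64.4% of all tested genes, and 10 rose relative to the median gene, beside 21.8%. On that scale C4b and Serping1 were higher (1.40 and 0.55), whereas C1ra, C1s1 and C3 did not pass (0.16, -0.03 and -0.17). The summed RPKM of the 12 fibroblast markers ran from 2340.7 to 3639.1 with AAV-Cre and from 1058.4 to 1208.1 with AAV-Luc. Library 4 was highest within AAV-Cre for 9 of the 12, beside 31.1% of all tested genes. It was also highest for 15 of the 22 general myeloid genes. The part of fibroblasts in the values of C4b, C1ra, C1s1, C3 and Serping1 was not tested.

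Outside the 40, 22 of 36 other listed complement genes were tested. Of these 12 rose, no larger a share than the 64.4% of all tested genes, and 2 fell, beside 8.87% of all tested genes. Cd55, which speeds the decay of convertases, averaged 14.4 ± 2.46 RPKM with AAV-Cre and 5.24 ± 0.998 RPKM with AAV-Luc (log2 fold change 1.38, adjusted p = 3.19e-05), and clusterin Clu 177 ± 23.8 RPKM with AAV-Cre and 84.7 ± 8.99 RPKM with AAV-Luc (1.05). C4a, the near-copy of C4b, rose by 1.49. The 2 that fell were Vtn, which fell by 1.16 on the log2 scale, and C1qbp, which fell by 0.56, named after their values were seen. Relative to the median gene the same list was split, with 6 higher and 6 lower, beside 21.8% and 24.1% of all tested genes. In a list of 31 other macrophage genes 24 of 26 tested rose, beside 64.4% of all tested genes. Relative to the median gene 18 of these 26 were higher and 1 lower, beside 21.8% and 24.1% of all tested genes. Those that rose included Ms4a6d by 1.59, Sirpa by 1.19, the Fc receptor Fcgr2b by 1.11 and the transcription factor Irf5 by 0.97. Ccr2, the receptor of blood monocytes for their chemokine and also named after its value was seen, averaged 4.56 ± 1.16 RPKM with AAV-Cre and 1.07 ± 0.144 RPKM with AAV-Luc (log2 fold change 1.66, adjusted p = 2.58e-05). All 18 tested genes of the phagocyte oxidase and leukocyte signalling rose, among them Lcp1 by 1.24, Cd48 by 1.05, Coro1a by 1.03 and Vav1 by 1.01. Relative to the median gene 9 of the 18 rose, beside 21.8% of all tested genes. Rac2 and Dock2 of this list passed the filter only through their AAV-Cre libraries, so they had to differ.

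Markers of other leukocytes were examined beside the members. The 12 T and NK cell markers summed to 1.4 to 2.7 RPKM with AAV-Cre and 1.1 to 1.9 RPKM with AAV-Luc, and none was tested. The 10 neutrophil markers summed to 1.9 to 3.6 RPKM with AAV-Cre and 1.1 to 4.5 RPKM with AAV-Luc, with Elane at 0, and the 7 dendritic cell markers to 7.0 to 9.3 RPKM with AAV-Cre and 6.6 to 8.3 RPKM with AAV-Luc, with neither tested gene called as deposited and both, Clec9a and Zbtb46, lower relative to the median gene (-0.35 and -0.37). The 8 B cell markers summed to 27.4 to 39.2 RPKM with AAV-Cre and 9.9 to 23.9 RPKM with AAV-Luc, most of it from Blk and the immunoglobulin genes Igkc and Ighm. Of them 1 of 3 tested rose, the kinase Blk (19.0 ± 5.04 RPKM with AAV-Cre, 5.23 ± 1.2 RPKM with AAV-Luc), while Cd79a and Ms4a1 stayed under 1 RPKM. Among other cells, 2 of 10 endothelial markers were higher as deposited and none lower, whereas relative to the median gene 1 was higher and 7 were lower. Of all tested genes 64.4% were higher and 8.87% lower as deposited, and 21.8% and 24.1% relative to the median gene. Of 8 mural cell markers 5 were higher and 2 lower as deposited, and 4 higher and 3 lower relative to the median gene. Of 2 tested epicardial markers 1 was higher as deposited, and relative to the median gene 1 was higher and 1 lower. The higher one, Krt8, passed the filter only through its AAV-Cre libraries, so it had to differ. All 5 tested atrial markers were higher on both scales. None of 5 tested erythroid markers and not the 1 tested mast cell marker passed as deposited, while 3 of the erythroid markers and the mast cell marker were lower relative to the median gene.

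**Figure D2:**
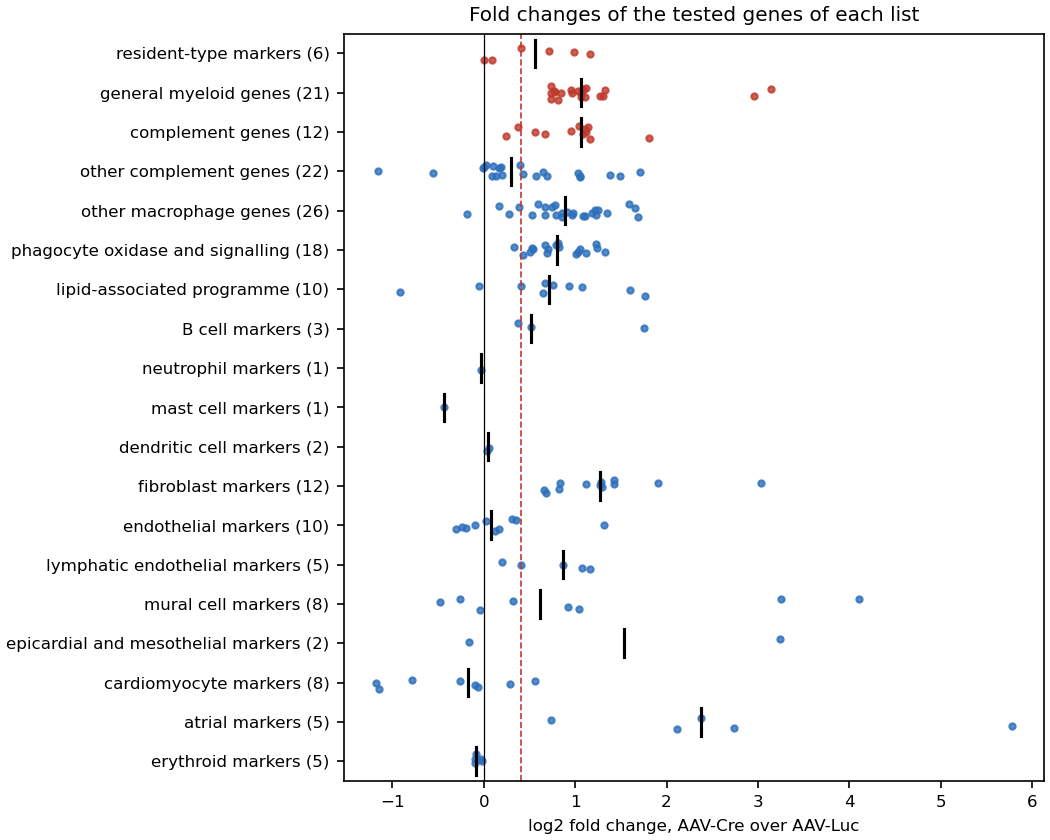
Log2 fold change, AAV-Cre over AAV-Luc, of each tested gene of the 3 member groups and of 16 other lists, with the number tested in brackets. Bars mark medians, and the dashed line is the median of all tested genes at 0.41: general myeloid and complement genes have medians of 1.06 and 1.07.

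For low values, such as those of Timd4 and of Gpnmb with AAV-Luc, the 0.5 RPKM added before the log ties a difference to library scaling. Otherwise a difference relative to a macrophage gene does not depend on the scaling of the library. The whole table was therefore also tested relative to Csf1r. Of 38 other members, 14 were higher and 4 lower (Cd163, Timd4, C3 and C1s1), beside 6.6% higher and 50.3% lower among all genes. The count depended on the gene chosen: 6 were higher relative to Ptprc and 3 relative to Adgre1. Shares of all genes called were not taken for Ptprc and Adgre1. The median log2 fold change of all tested genes was -0.33 relative to Csf1r, -0.37 relative to Ptprc and -0.70 relative to Adgre1. Only 6 members were called in 1 direction against all 3 genes, a count with no share of all genes beside it. For Gpnmb these calls carry the same limit from the filter. Gpnmb, Lgals3 and C4b were higher, by 2.40, 2.22 and 1.07 relative to Csf1r, 2.36, 2.18 and 1.03 relative to Ptprc, and 2.02, 1.85 and 0.70 relative to Adgre1. Cd163, Timd4 and C3 were lower, by -0.65, -0.74 and -0.50 relative to Csf1r (adjusted p = 0.00138, 0.00384 and 0.0309). They were at -0.69, -0.78 and -0.54 relative to Ptprc, and at -1.02, -1.11 and -0.87 relative to Adgre1. On each of these scales the median of all tested genes was also negative. Relative to the median gene Cd163 was lower (-0.32, adjusted p = 0.0358). Timd4 (-0.40, adjusted p = 0.0563) and C3 (-0.17, adjusted p = 0.501) did not pass there. The ratio of Cd163 to Csf1r was 0.453 ± 0.056 with AAV-Cre and 0.722 ± 0.13 with AAV-Luc, and of Timd4 to Csf1r 0.049 ± 0.0092 with AAV-Cre and 0.0842 ± 0.022 with AAV-Luc. Of the 6 members called against all 3 genes, 5 kept their call relative to Csf1r when any 1 of the 8 libraries was left out. These were Gpnmb, Lgals3, C4b, Cd163 and Timd4. The calls relative to Csf1r of Mrc1, Lyz2, Fcgr1, Tlr4, C1qa, C1qb, C1qc and C1s1 also held in all such fits. C3 lost its call in 5 of 8 such fits, without AAV-Cre library 1 or 2 or AAV-Luc library 2, 3 or 4 (adjusted p from 0.0557 to 0.0972). Of the 14 higher, Adgre1, Fcgr3, Tyrobp and Laptm5 lost the call without AAV-Cre library 1 (adjusted p from 0.0548 to 0.088). Fcgr3, Tyrobp and Laptm5 also lost it without AAV-Cre library 2 or AAV-Luc library 4, and without 1 to 3 further libraries (AAV-Cre 4, AAV-Luc 1 and 2 for Fcgr3, AAV-Luc 1 for Tyrobp, AAV-Luc 2 and 3 for Laptm5), at adjusted p up to 0.123. The C1q subunits were higher relative to Csf1r (by 0.37 to 0.42) and did not pass relative to Ptprc or Adgre1.

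**Figure D3:**
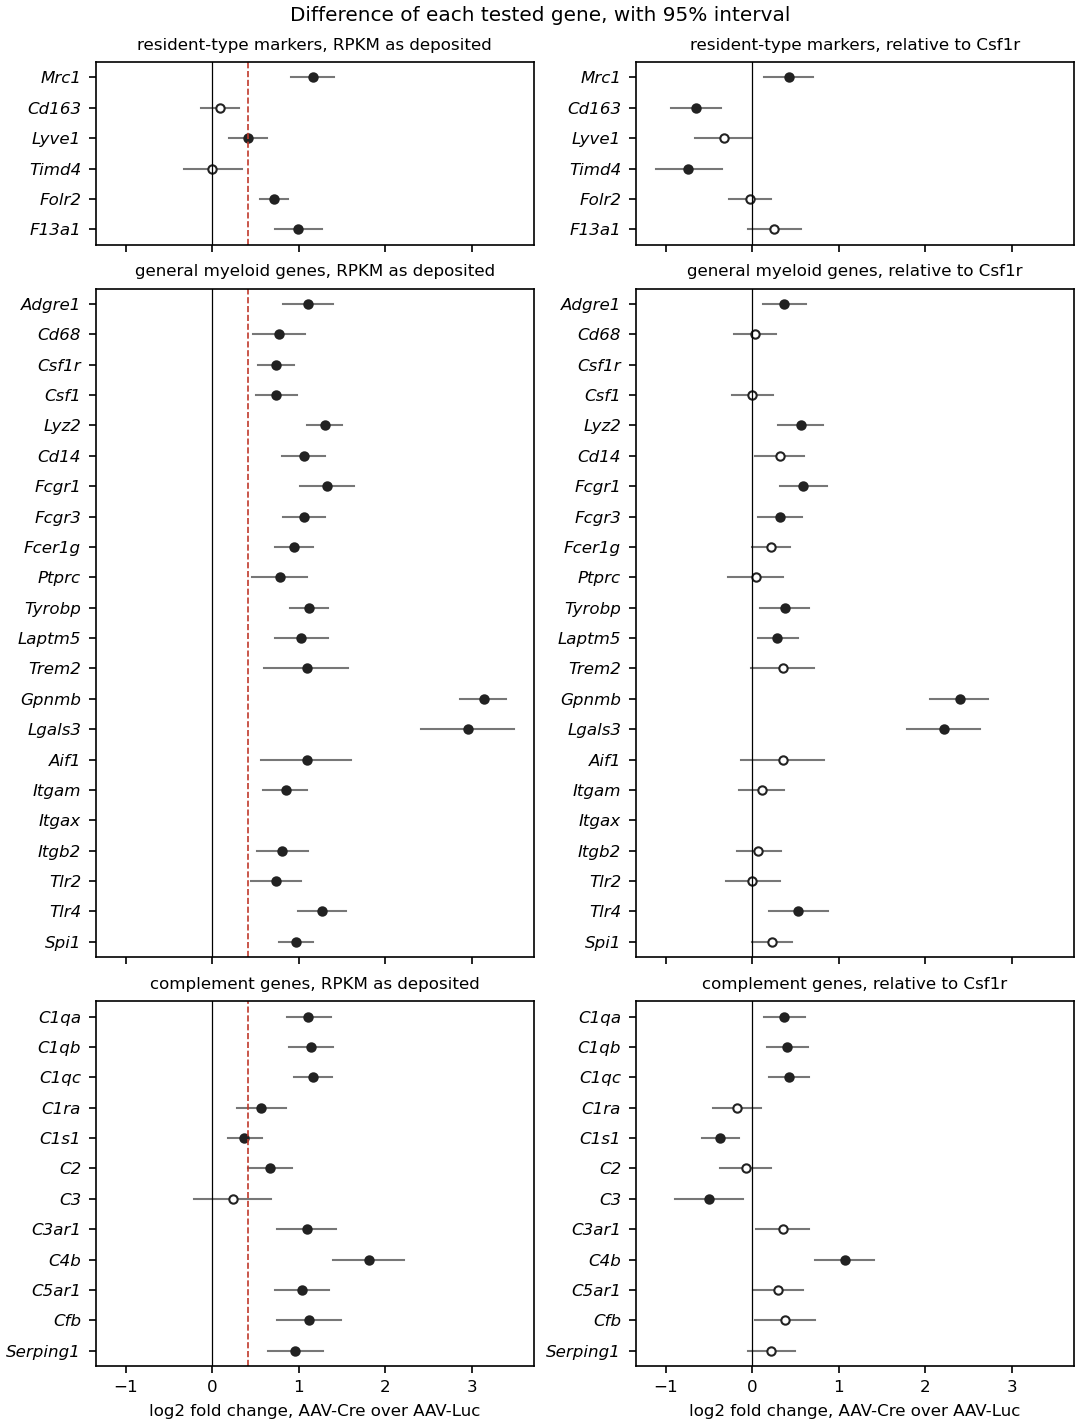
Log2 fold change of each gene, AAV-Cre over AAV-Luc, with its 95% interval, for RPKM as deposited (left) and relative to Csf1r (right). Filled points passed an adjusted p of 0.05, open points did not, and the dashed line is the median of all tested genes. Gpnmb, Lgals3 and C4b lie farthest right in both columns. On the right, the filled points left of 0 are Cd163, Timd4, C3 and C1s1, and some open points also lie left of 0.

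Many members were low or high in the same libraries of a group. AAV-Cre library 3 was the lowest AAV-Cre library for 28 of the 40 genes (70%), beside 35.1% of all tested genes, and AAV-Cre library 4 the highest for 23 (57.5%), beside 31.1%. Library 3 was also lowest for 17 of 18 genes of the phagocyte oxidase and signalling list. Gpnmb, Cd163 and C2 departed from this, being highest in library 3, and C3, C4b, Lgals3 and Serping1 were second highest there. AAV-Luc library 3 was lowest within AAV-Luc for 20 of the 40, about its share of all tested genes (49.2%). Without AAV-Cre library 3, 36 members were still higher in the fit as deposited, and 31 relative to the median gene. Library 3 was also the library with the most Myl7, and the part of that in its low values was not tested.

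**Figure D4:**
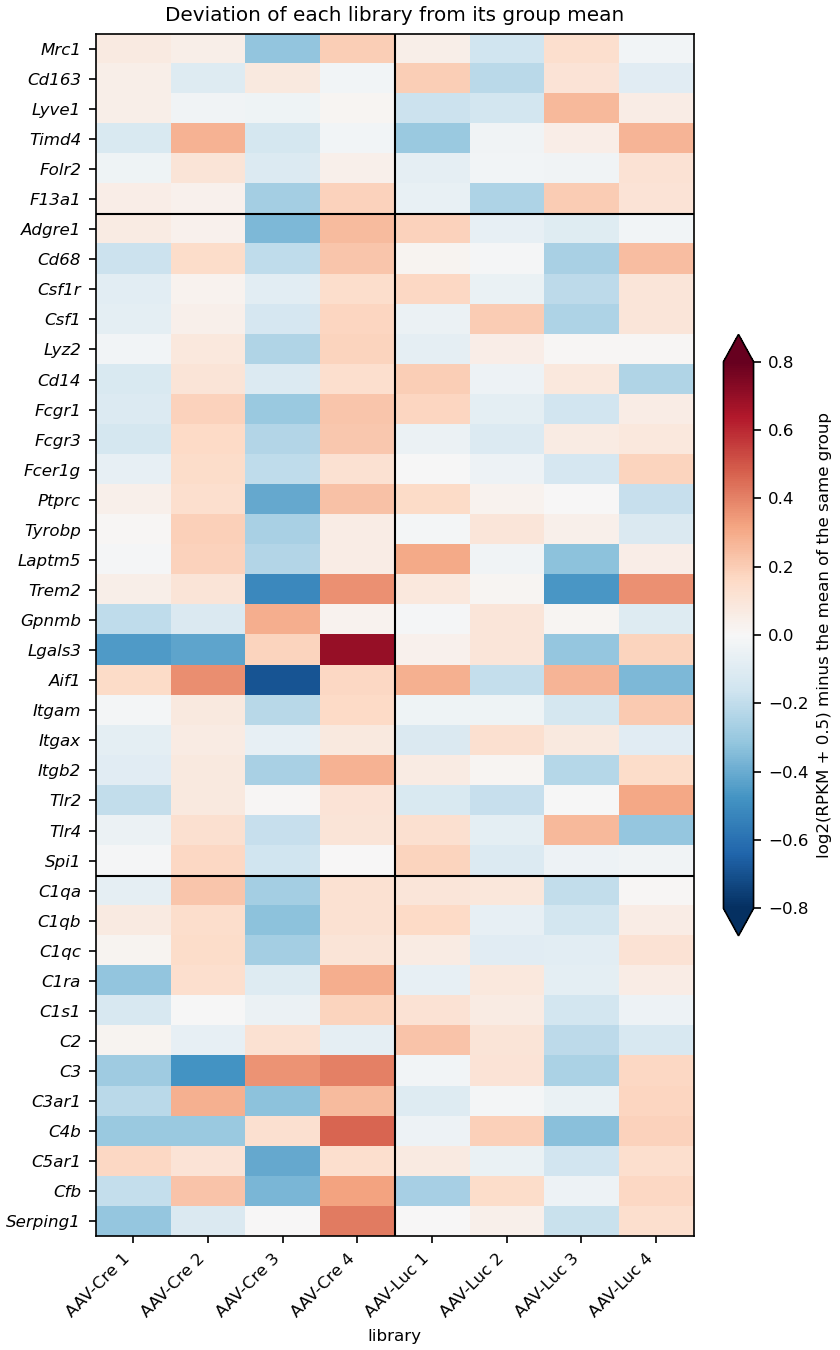
Deviation of each library from the mean of its own group, in log2(RPKM + 0.5), for the 40 genes, with AAV-Cre libraries left of the line. Column AAV-Cre 3 is below its group mean for most genes but not for Gpnmb, Lgals3, C3 and C4b, among others.

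Some values may hold reads of near-copies or overlapping genes, since the use of strand is not given in the sources used here. Of all 50-base windows in a gene's longest transcript, 81.4% in Cfb, 72.4% in Itgam, 58.0% in C2, 56.7% in Folr2, 50.8% in C1ra, 39.0% in C1s1 and 35.2% in C4b also occurred in another annotated gene, so these are less certain. For C4b the partner was C4a, which averaged 4.31 ± 1.02 RPKM with AAV-Cre and 1.2 ± 0.247 RPKM with AAV-Luc. Shares were lower in Csf1r (17.7%), Lyz2 (15.4%) and Fcgr3 (12.8%).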

How the data were processed

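Per the labels, RNA of mouse ventricles was poly(A)-enriched and sequenced as read pairs. The deposited values are RPKM per gene. The tools in the submitters' processing notes are STAR, edgeR, Partek 6.6 and FastQC 0.11, with mm10 as build and with no roles given. The 8 value columns name a group and no sample, so each served as a replicate of its group.

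A limma fit (version 3.58.1, R 4.3.3, lmFit and trended eBayes) was run on log2(RPKM + 0.5) for the 16385 genes that reached 1 RPKM in 4 or more libraries. The pseudocount understates the change of low genes. Adjusted p-values are Benjamini-Hochberg over all tested genes, with a threshold of 0.05. The fit was repeated relative to Csf1r, Ptprc and Adgre1, centred on library medians, and with the alternatives of the closing section. It was tested on simulated data. Python 3.11.15 (numpy 2.4.6, pandas 2.3.3, matplotlib 3.10.9) made tables and plots. No value above 0 was equal in 2 libraries.

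Low values of genes with 1 transcript, times length and library step, fell within 0.1 of a whole number in 99.6 to 99.8% of cases, giving the implied totals. Gene lengths of the other genes are unknown, so no count model was fitted. Positions are from GENCODE M21 (GRCm38). The members and lists, including 17 lists of other genes, were chosen with earlier results of these data known. The rule named all 40 members, Esrra, Esrrg, Myl7 and up to 4 genes of smallest adjusted p from each list, and Ccl21a, Pdpn, Apoe, Lpl and others are such genes. A gene that the rule named is not reported here.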

Additional observations from a re-analysis of the deposited data

Results flagged for a closer look

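A sample far from the others of its group was found for 2 members, both in AAV-Cre library 3. C1qb had 44.7 RPKM there, while the other 3 AAV-Cre libraries had 59.0 to 61.9 RPKM, a gap of 0.833 of the group's range. C5ar1 had 2.96 RPKM there and 4.46 to 4.65 RPKM in the others, a gap of 0.89 of the range. Both values lay above every AAV-Luc library. Both gaps exceed Dixon's 95% critical value for 4 samples. In all, 80 groups were examined, and chance flags about 1 group in 20.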

How the results depend on the processing

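No paired analysis was possible because the value columns carry a group name and no replicate number. The count of members higher was 36 in every fit that left out 1 library, 37 with no filter, and 30 with centring or quantile normalization. Members lower numbered 1 with centring (1 also without AAV-Cre library 3, and 1 without the libraries of most Myl7, AAV-Cre 3 and AAV-Luc 2), and 2 with quantile normalization. These 2 alternatives, centring with libraries left out, were added after seeing the data. All genes called numbered 12013 as reported, 11248 to 11767 with 1 library left out, 7527 centred, 7648 quantile normalized, 7374 centred without AAV-Cre library 3 and 6853 centred without the libraries of most Myl7. Members called relative to Csf1r numbered 18 as reported and 13 to 23 in fits with 1 library left out (10 to 19 higher, 3 to 5 lower), and those called relative to Ptprc 9 (6 higher). With a pseudocount of 0.1 the members called relative to Csf1r numbered 23 (19 higher, 4 lower), and with 1 they numbered 18. Relative to Adgre1 3 were higher and 10 lower, where the median of all tested genes was itself at -0.70. In the order centred, quantile, centred without AAV-Cre library 3 and centred without the libraries of most Myl7, log2 fold changes turned to -0.32, -0.31, -0.35 and -0.44 for Cd163, -0.40, -0.52, -0.37 and -0.39 for Timd4, -0.03, -0.04, -0.03 and -0.02 for C1s1, and -0.17, -0.17, -0.30 and -0.28 for C3. Uncentred without the libraries of most Myl7, Cd163 was at -0.01, and centred, Lyve1 was at -0.05. Timd4 was at -0.04 without mitochondrial and haemoglobin genes and ran from -0.10 to 0.09 with 1 library left out. Esrra passed at -0.62 centred, -0.56 quantile normalized, -0.28 without mitochondrial and haemoglobin genes, -0.22 with library weights, -0.68 centred without AAV-Cre library 3 and -0.64 centred without the libraries of most Myl7. It ran from -0.26 to -0.14 with 1 library left out, passing without AAV-Cre library 3. The shift of all genes accounts for the difference between as-deposited and centred values by construction, and the cause of the others was not tested. Values of Timd4 and Itgax, near or under 1 RPKM, and of Gpnmb with AAV-Luc are low, and the part of depth in their spread was not tested.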
